A study of Mus musculus with 12 samples.

Results

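The genes for the proteins of the mitochondrial ribosome were followed through the cerebellum of mice with a Sca6 knockin allele and their wild type littermates. A gene was a member when the only symbol annotated to a probe set began with Mrpl or Mrps followed by a digit, and symbols of pseudogenes were left out. This gave 76 genes out of 12672 tested, 47 with an Mrpl symbol and 29 with an Mrps symbol. Each was read from the brightest of its probe sets, and all 76 passed the filter on dim probe sets. The knocked-in sequence sits in Cacna1a, which encodes the channel-forming subunit of a voltage-gated calcium channel (P/Q-type) abundant in Purkinje cells. The mice were 6 weeks old and on a C57BL/6 background, and each of the 4 groups had 3 arrays. These were the wild type littermates of the MPI 11Q/11Q line, the MPI 11Q/11Q knockin mice, the wild type littermates of the MPI 118Q/118Q line and the MPI 118Q/118Q knockin mice, called here 11Q wild type, 11Q knockin, 118Q wild type and 118Q knockin. The number in each allele's name is that of its glutamine codons, 118 being an expanded tract and 11 a normal one, as in the disease SCA6. RNA came from cerebellar tissue and not from sorted cells, so each value is an average over all cells. The labels do not give sex, litter or the day of dissection, so the p-values measure the spread between these arrays. Knockin against knockin compares mice of separate lines, for which repeat length and any other difference between the lines cannot be told apart.

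The mitochondrial ribosome makes only the few proteins that the mitochondrial genome encodes, all of them subunits of the respiratory chain and of ATP synthase. Its own proteins are all encoded in the nucleus, made in the cytosol and imported. Some have a counterpart in the bacterial ribosome and others are specific to mitochondria. Neurons depend strongly on oxidative phosphorylation, and inherited defects of several of these proteins cause disease of brain, heart or muscle.

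By role the members were 28 proteins of the large subunit with a bacterial counterpart, 21 of the large subunit that are specific to mitochondria, 16 of the small subunit with a bacterial counterpart and 10 of the small subunit that are specific to mitochondria. Mrps30 and Mrps18a carry the symbol of the small subunit but belong to the large subunit and were counted there. Mrps36, the remaining member, is no longer counted as a ribosomal protein and is known as a part of the 2-oxoglutarate dehydrogenase complex. Symbols appear as in the array annotation.

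The members varied together over the arrays. For each array the value of every member was set against that member's mean over the 12 arrays. The median of these deviations over the 76 members was 0.18, 0.21 and 0.27 log2 units on the 118Q knockin arrays. It was -0.05, 0.04 and 0.05 on the 118Q wild type arrays, -0.13, -0.14 and -0.16 on the 11Q knockin arrays and -0.16, -0.13 and 0.05 on the 11Q wild type arrays. The 118Q knockin arrays were thus the highest, the 11Q knockin arrays were low throughout, and the third of the 11Q wild type arrays stood apart from the other two of its group. On the 118Q knockin arrays 64, 65 and 72 of the 76 members were above their mean, and on the 11Q knockin arrays 7, 6 and 6. The median deviation over all genes tested was 0.047 to 0.055 on the 118Q knockin arrays and -0.063 to -0.0063 on the 11Q knockin arrays. Over the cytosolic ribosomal protein genes it was 0.13 to 0.41 and -0.22 to -0.14. The first principal component of the 76 members held 68.6% of their variance. All 3 of the 118Q knockin arrays were above all the other 9 arrays for 26 members, which is 34.2% of the members, while the same held for 8.79% of all genes tested. The array with the highest value was a 118Q knockin array for 19, 20 and 27 members, and the lowest was the third of the 11Q knockin arrays for 23. Counts above the mean, the first component and the counts of highest and lowest arrays were not taken over all genes.

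**Figure D1:**
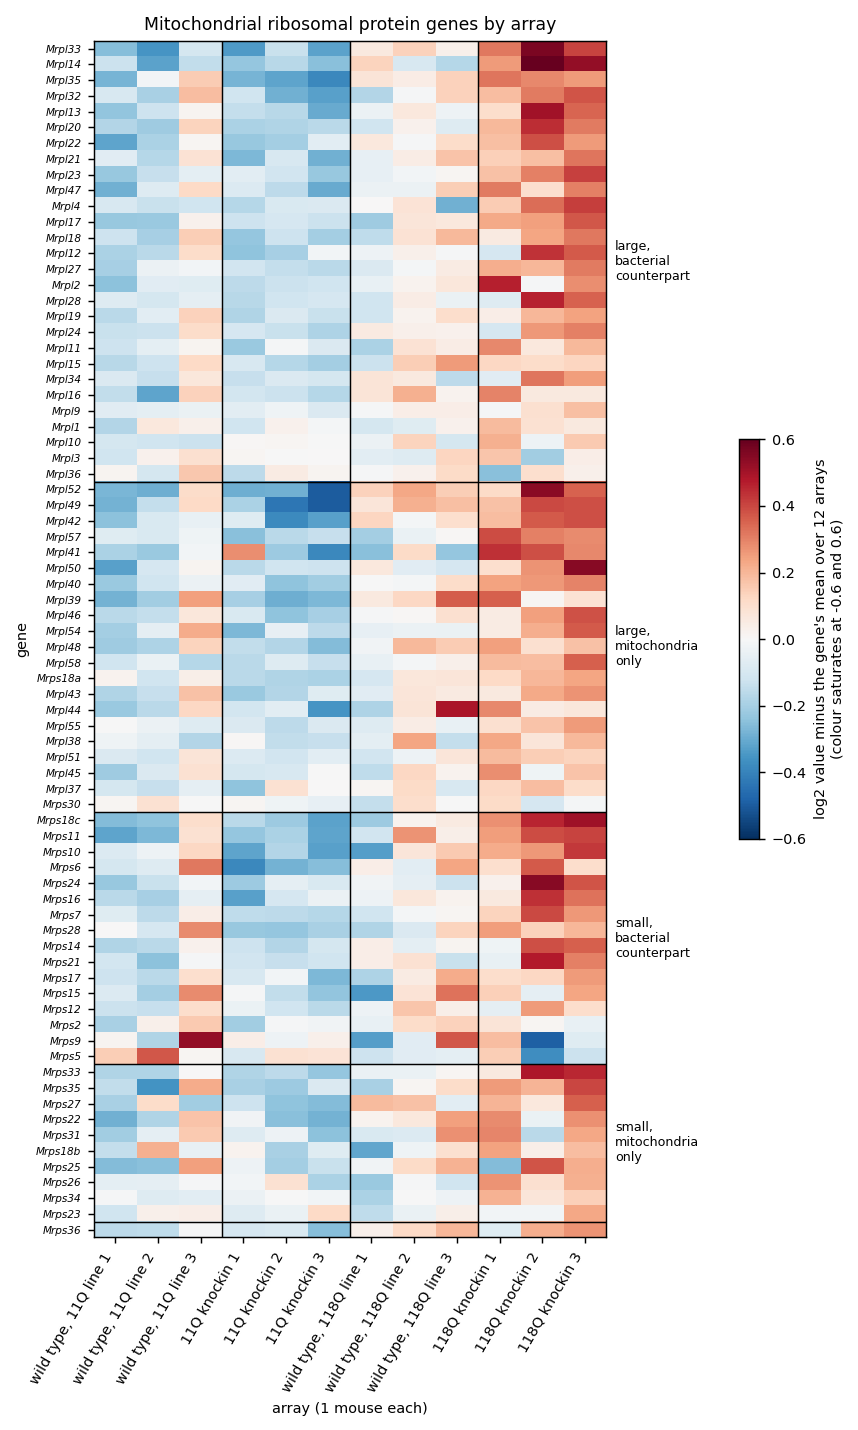
Heat map of the 76 mitochondrial ribosomal protein genes (vertical axis, ordered by role) on the 12 arrays (horizontal axis, by group), coloured by the deviation of each log2 value from the gene's mean over the arrays. The 118Q knockin columns are above the mean for 64 to 72 members and the 11Q knockin columns for 6 to 7.

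Other measures of the arrays moved with the groups as well. The signal averaged over the 18S ribosomal RNA control probe sets was 9.23, 8.63 and 8.56 (log2) on the 118Q knockin arrays. This was below the 9 other arrays, which lay between 9.66 and 10.54. On the 118Q knockin arrays the deviation of a gene fell with its genomic span, from start to end, across all genes tested, with Spearman's rho of -0.24, -0.33 and -0.30, while rho was 0.14 to 0.23 on the 11Q wild type arrays, 0.11 to 0.20 on the 11Q knockin arrays and -0.04 to 0.16 on the 118Q wild type arrays. Markers of Purkinje cells were lower in the 118Q knockin than in its littermates for 9 of 10 genes, with 1 called, and their summed linear level was 5932 to 8418 against 9072 to 10022. Markers of microglia were higher for 9 of 9 genes, with 1 called, and their summed linear level was 285 to 368 against 225 to 256. Markers of endothelium and mural cells were lower for 10 of 10 genes, with 1 called and 7 at an unadjusted p below 0.05, and their summed linear level was 357 to 422 against 446 to 545. Those of meninges were lower for 9 of 9, with 0 called and 2 at an unadjusted p below 0.05, and with overlapping summed levels of 2302 to 2768 against 2634 to 2836. Summed levels of the choroid plexus markers varied widely within the 118Q knockin (464 to 3782), its littermates (129 to 4219) and the 11Q knockin (85.8 to 3755). In the 11Q wild type they were 4027 to 4232, above those of every 11Q knockin array. All 8 choroid plexus markers were lower in the 11Q knockin than in its littermates, with 0 called. All 8 had an unadjusted limma p below 0.05, against 3.13% of all genes lower. Between the knockins 6 of 10 Purkinje cell markers and 4 of 10 endothelium and mural markers were called lower, against 3.6% of all genes. Of 9 microglia markers 6 were called higher, against 10.1%. Granule cell markers were below 0 in 8 of 9, with 1 called lower. Oligodendrocyte markers were above 0 in 7 of 9, with 1 called higher, and those of astrocytes and Bergmann glia in 6 of 10, with 0 called. Against the 118Q littermates these lists were above 0 in 5 of 9, 7 of 9 and 6 of 10, with 0 called. In bulk tissue, fewer cells of a type and less RNA per cell cannot be told apart. The labels give only a lower limit for the RNA integrity number and no value per array, so these measures could not be set against RNA quality. The part of these measures in the members' differences was not tested, apart from the fits given below with the 18S signal as covariate and with the trend over gene span removed. The array does not read the glutamine tract; Cacna1a itself was at 6.36, 6.25 and 6.48 in the 11Q wild type, 6.28, 6.42 and 6.17 in the 11Q knockin, 6.09, 5.54 and 6.19 in the 118Q wild type and 5.67, 5.65 and 5.50 in the 118Q knockin, and neither knockin effect on it passed the test.

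**Figure D2:**
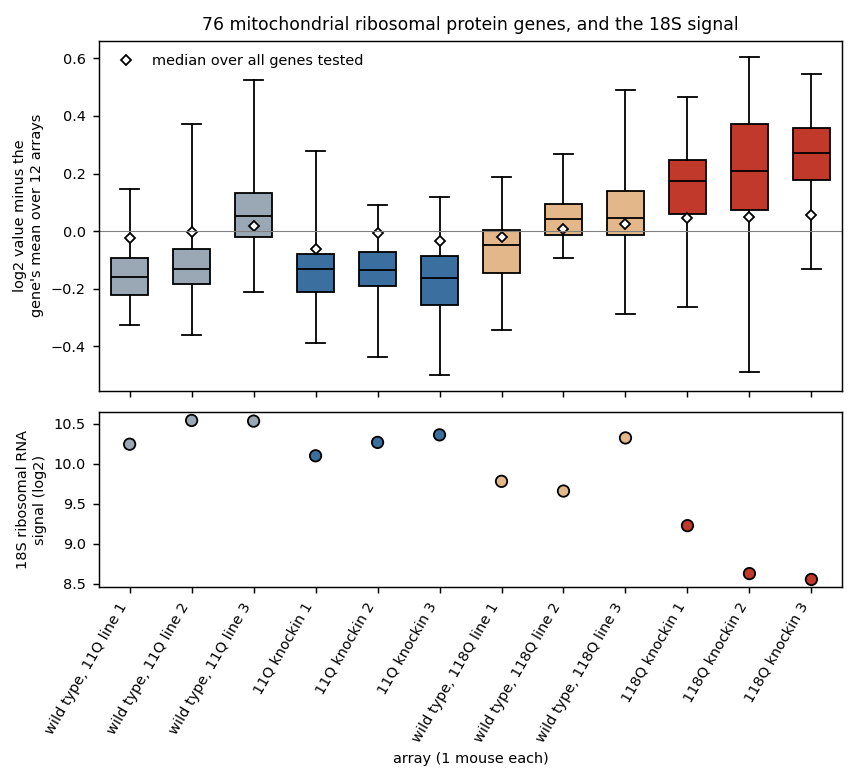
Deviations of the 76 members from their means over the 12 arrays (log2 units, box plot per array), with the mean log2 signal of the 18S control probe sets of each array. Boxes run from the lower to the upper quartile of the members, with a line at the median and whiskers to the lowest and highest member. Diamonds mark the median over all genes tested. The medians are 0.18 to 0.27 on the 118Q knockin arrays, where the 18S signal is lowest at 8.56 to 9.23.

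The upstream sequences of 6 members are shown because these genes head the comparisons below or carry a match to a factor known for genes of mitochondrial function. RefSeq windows around the start of transcription, 250 bases before and 50 after, existed for 67 of the 76 members. Of each, 200 bases before the start and 30 from it are printed 5′ to 3′ on the gene's own strand, assembly GRCm38.p6, with matches in capitals. The letters searched on both strands were CCGGAAG for the ETS family, to which GABPA (also called NRF-2) belongs, CGCATGCG for NRF1, AAGATGGCG for YY1 and CACGTG for the E-box bound by MYC and its relatives. No match overlaps another in the windows shown. Mrpl57 lies at chr14:57826039-57826268 on the plus strand and has an ETS match 5 bases into the transcript.
Mrpl57: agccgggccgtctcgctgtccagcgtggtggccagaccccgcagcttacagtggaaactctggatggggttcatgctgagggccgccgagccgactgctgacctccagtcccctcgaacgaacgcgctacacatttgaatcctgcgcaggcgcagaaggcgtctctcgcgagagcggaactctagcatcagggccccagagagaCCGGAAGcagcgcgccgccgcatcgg
Mrpl14, at chr17:45686149-45686378 on the plus strand, holds none of these letters.
Mrpl14: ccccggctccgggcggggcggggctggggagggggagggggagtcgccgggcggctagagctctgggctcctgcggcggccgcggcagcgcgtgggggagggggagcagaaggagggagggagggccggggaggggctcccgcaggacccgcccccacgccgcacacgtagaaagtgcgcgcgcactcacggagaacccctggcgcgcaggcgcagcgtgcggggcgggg
Mrps18c, at chr5:100798559-100798788 on the plus strand, has an E-box match at -163 and an ETS match on the other strand at -156.
Mrps18c: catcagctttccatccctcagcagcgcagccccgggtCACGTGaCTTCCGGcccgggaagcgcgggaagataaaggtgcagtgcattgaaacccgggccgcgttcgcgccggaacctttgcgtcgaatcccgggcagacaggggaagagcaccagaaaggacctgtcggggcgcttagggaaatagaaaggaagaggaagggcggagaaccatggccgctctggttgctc
Mrpl33, at chr5:31613751-31613980 on the plus strand, has an ETS match at -3.
Mrpl33: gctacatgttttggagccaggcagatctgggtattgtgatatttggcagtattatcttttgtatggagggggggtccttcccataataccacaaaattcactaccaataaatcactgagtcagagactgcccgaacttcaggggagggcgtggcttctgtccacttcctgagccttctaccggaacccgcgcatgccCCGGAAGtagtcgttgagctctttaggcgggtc
Mrpl22, at chr11:58171464-58171693 on the plus strand, has an ETS match at -53 and an NRF1 match at -32.
Mrpl22: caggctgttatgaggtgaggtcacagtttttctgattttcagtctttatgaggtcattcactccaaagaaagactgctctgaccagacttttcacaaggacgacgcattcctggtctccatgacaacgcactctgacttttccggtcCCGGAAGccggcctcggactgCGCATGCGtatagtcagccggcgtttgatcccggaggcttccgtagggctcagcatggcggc
Mrps11, at chr7:78782931-78783160 on the plus strand, has a YY1 match on the other strand at -108.
Mrps11: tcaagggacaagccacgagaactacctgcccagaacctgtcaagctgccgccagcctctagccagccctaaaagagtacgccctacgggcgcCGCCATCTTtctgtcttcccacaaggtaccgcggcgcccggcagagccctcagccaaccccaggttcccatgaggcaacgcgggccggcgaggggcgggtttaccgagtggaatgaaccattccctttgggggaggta
Positions are those of the first base of the match, counted from the start of transcription. These matches are letters in a window and not shown to be bound sites.

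Among the 67 members with a window, 25 (37.3%) held the ETS letters, against 18.8% of the tested genes and 9.93% of all genes with a window. The 29 matches had a median position of -17, and 26 of them lay within 100 bases of the start. The YY1 letters were in 8 members (11.9%, against 3.40% of tested genes), the NRF1 core in 7 (10.4%, against 4.08%) and the E-box in 5 (7.46%, against 11.6%). The median difference between the 118Q knockin and its littermates was 0.18 log2 units in the 25 with the ETS letters and 0.18 in the 42 without. Between the knockins it was 0.37 in both, and 14 of the 25 and 16 of the 42 were called, against 10.1% of all genes. Differences between members with and without the ETS letters were not tested. Mrps11 and Mrpl46 are neighbours on chromosome 7 that run in opposite directions, with starts 42 bases apart at 78783131 and 78783089.

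Comparing the 118Q knockin with its own littermates asks what the expanded allele changes within its line. Most members were higher in the knockin, but no single gene passed the threshold. Of the 76 members 71 were higher in the 118Q knockin, against 60% of all genes tested, and 5 were lower, against 40%. The median difference was 0.20 log2 units, or 1.15-fold, against 0.06 for all genes. With limma, 0 members had an adjusted p below 0.05, against 0.0789% of all genes higher and 0.11% lower. At an unadjusted p below 0.05, 25 members were higher (32.9%, against 12% of all genes) and 0 were lower (against 6.7%). In 31 members (40.8%, against 15.1% of all genes) the 3 knockin arrays were all above the 3 littermate arrays, and in 0 members they were all below, which held for 7.24% of all genes.

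Mrpl57, a protein of the large subunit found only in mitochondria, came first by p. Mrpl57 read 6.27, 6.25 and 6.32 on the 11Q wild type arrays, 6.09, 6.18 and 6.20 on the 11Q knockin arrays, 6.14, 6.30 and 6.35 on the 118Q wild type arrays and 6.74, 6.65 and 6.63 on the 118Q knockin arrays. The 118Q knockin arrays were above every other array, and the other groups overlapped. The knockin exceeded its littermates by 0.41 ± 0.09 log2 units (SE), with a limma adjusted p of 0.0693. Mrpl14, the counterpart of bacterial L14 on the face of the large subunit that meets the small subunit, had the same adjusted p. Mrpl14 read 4.99, 4.80 and 4.97 on the 11Q wild type arrays, 4.89, 4.96 and 4.87 on the 11Q knockin arrays, 5.25, 5.03 and 4.95 on the 118Q wild type arrays and 5.38, 5.73 and 5.65 on the 118Q knockin arrays. Again the 118Q knockin arrays were above all others, and the difference from the littermates was 0.51 ± 0.12. For the small subunit, Mrps18c, a counterpart of bacterial S18, ranked highest. Mrps18c read 6.65, 6.67 and 7.02 on the 11Q wild type arrays, 6.75, 6.69 and 6.59 on the 11Q knockin arrays, 6.70, 6.93 and 6.97 on the 118Q wild type arrays and 7.18, 7.37 and 7.42 on the 118Q knockin arrays. Its 118Q knockin arrays lay above the rest, with a difference of 0.46 ± 0.13 and a limma adjusted p of 0.0993.

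5 large subunit proteins with a bacterial counterpart or specific to mitochondria followed in the ranking. Mrpl20 read 6.56, 6.52 and 6.86 on the 11Q wild type arrays, 6.54, 6.55 and 6.57 on the 11Q knockin arrays, 6.61, 6.75 and 6.66 on the 118Q wild type arrays and 6.93, 7.17 and 7.04 on the 118Q knockin arrays. Mrpl20, whose bacterial counterpart is needed early in assembly of the large subunit, differed by 0.37 ± 0.11 with a limma adjusted p of 0.121. Mrpl33 read 4.24, 4.14 and 4.38 on the 11Q wild type arrays, 4.15, 4.36 and 4.17 on the 11Q knockin arrays, 4.55, 4.63 and 4.52 on the 118Q wild type arrays and 4.80, 5.05 and 4.89 on the 118Q knockin arrays. In Mrpl33, a short protein of the large subunit, the 118Q wild type arrays were also above the 11Q arrays of either genotype, and the knockin effect was 0.35 ± 0.11. Mrpl4 read 6.48, 6.44 and 6.46 on the 11Q wild type arrays, 6.40, 6.48 and 6.49 on the 11Q knockin arrays, 6.58, 6.65 and 6.29 on the 118Q wild type arrays and 6.73, 6.91 and 6.99 on the 118Q knockin arrays. Mrpl4, whose bacterial counterpart lines the tunnel through which the new chain leaves, differed by 0.37 ± 0.11, and by -0.04 once the 18S signal entered as covariate. Mrpl23 read 6.53, 6.62 and 6.70 on the 11Q wild type arrays, 6.69, 6.64 and 6.53 on the 11Q knockin arrays, 6.71, 6.74 and 6.77 on the 118Q wild type arrays and 6.93, 7.06 and 7.17 on the 118Q knockin arrays. Mrpl23, the counterpart of a protein at the mouth of that tunnel, differed by 0.32 ± 0.10. Mrpl41 read 7.12, 7.08 and 7.29 on the 11Q wild type arrays, 7.58, 7.09 and 6.92 on the 11Q knockin arrays, 7.05, 7.42 and 7.07 on the 118Q wild type arrays and 7.74, 7.69 and 7.59 on the 118Q knockin arrays. For Mrpl41, which is specific to mitochondria, the difference was 0.49 ± 0.16, and the first 11Q knockin array came close to the 118Q knockin arrays. In each of these 5 genes all 3 of the 118Q knockin arrays were above the other 9.

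**Figure D3:**
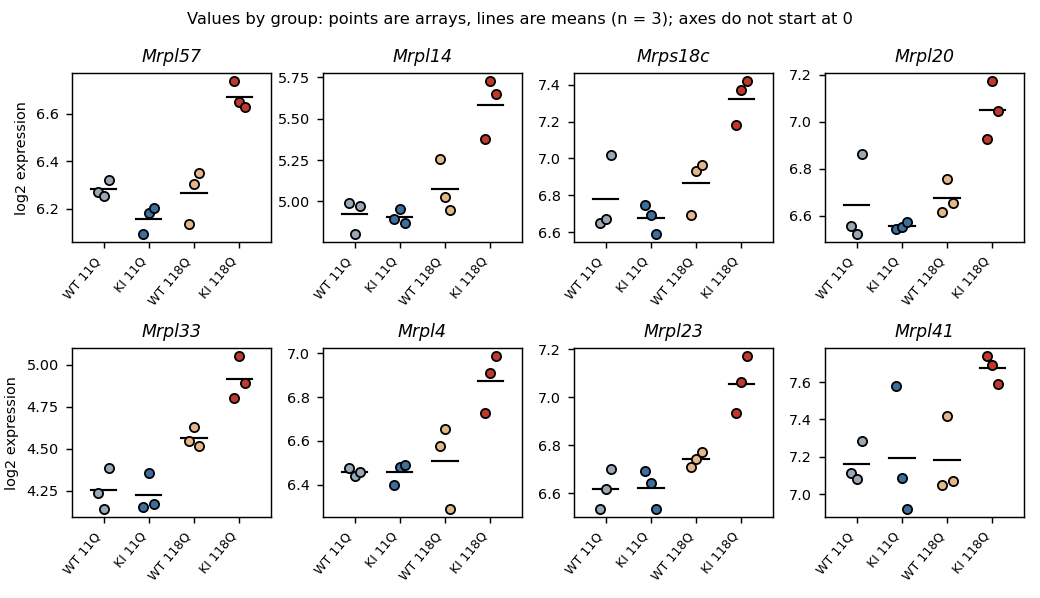
Log2 values of the 8 members with the smallest p in the 118Q knockin effect on each array (points, by group; short lines, group means; each axis has its own range). In all 8 the 118Q knockin arrays lie above the other 9, with knockin effects of 0.32 to 0.51 log2 units.

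Small subunit members next in rank were Mrps7, part of the head of that subunit, at 0.30 ± 0.10, and Mrps24, a counterpart of bacterial S3, at 0.39 ± 0.13. Mrps33 differed by 0.36 ± 0.12 and Mrps26 by 0.31 ± 0.10; both are specific to mitochondria. Their limma adjusted p-values were 0.149 to 0.151. By role the median difference was 0.21 in the large subunit proteins with a bacterial counterpart, 0.17 in those specific to mitochondria, 0.24 in the small subunit proteins with a counterpart and 0.17 in those specific to mitochondria. Differences between the roles were not tested. The most negative differences were -0.12 ± 0.22 for Mrps9, -0.08 ± 0.12 for Mrpl36 and -0.05 ± 0.11 for Mrps2. Mrps36, the former member of the ribosome, was at 0.02 ± 0.11.

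Probe sets of a single gene did not always agree. Mrpl57, first in the ranking, was at 0.41 with its brightest probe set and at 0.036 with the next (unadjusted limma p of 0.80), and between the knockins at 0.51 and 0.15. Mrpl41, the only other of the 8 leading members with a further probe set, was at 0.49 and 0.48. In the 38 members with a further probe set above the filter, the next brightest had the same sign in 28 and the opposite sign in 10. For Mrpl27 the brightest gave 0.26 and the next -0.01, and for Mrps5 they gave -0.04 and 0.39. Over these 38 members the median was 0.17 with the brightest and 0.09 with the next.

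The count of 0 members called in the 118Q knockin effect depended on single arrays. Without the first 118Q knockin array 6 members passed at an adjusted p below 0.05, as did 5.58% of all genes. With array weights, which gave that array a weight of 0.422 and the third 118Q wild type array 0.452, 24 members passed, as did 12.1% of all genes. Removing the trend with gene span within each array lowered the median of the members from 0.20 to 0.12.

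In the 11Q line most members were lower in the knockin than in its littermates, and none passed the threshold. Of the 76 members 65 were lower, against 59.3% of all genes tested, and 11 were higher, against 40.7%; the median difference was -0.07 log2 units, against -0.04 for all genes. Limma called 0 members, as it called 0% of all genes in either direction. At an unadjusted p below 0.05, 3 of 76 members were lower, against 3.13% of all genes, and 0 were higher, against 1.1%. All 3 knockin arrays were below the littermate arrays in 6 members, against 7.17% of all genes, and above them in 1, against 3.24%. The shift rested on the third 11Q wild type array: without it the median was 0.0041 and 43 members were higher.

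Those 3 members were Mrps6, Mrpl35 and Mrps28. Mrps6 read 6.37, 6.40 and 6.79 on the 11Q wild type arrays, 6.09, 6.19 and 6.22 on the 11Q knockin arrays, 6.52, 6.41 and 6.72 on the 118Q wild type arrays and 6.58, 6.85 and 6.58 on the 118Q knockin arrays. The 11Q knockin arrays of Mrps6, a counterpart of bacterial S6, were below all the others, with a difference from their littermates of -0.35 ± 0.13 and a limma adjusted p of 0.939. Mrpl35 read 5.71, 5.98 and 6.15 on the 11Q wild type arrays, 5.71, 5.68 and 5.61 on the 11Q knockin arrays, 6.07, 6.04 and 6.13 on the 118Q wild type arrays and 6.31, 6.28 and 6.25 on the 118Q knockin arrays. Mrpl35, a large subunit protein with a bacterial counterpart, differed by -0.28 ± 0.11, and its lowest littermate array was level with the highest knockin array. Mrps28 read 5.69, 5.59 and 5.97 on the 11Q wild type arrays, 5.46, 5.46 and 5.49 on the 11Q knockin arrays, 5.51, 5.60 and 5.82 on the 118Q wild type arrays and 5.94, 5.82 and 5.89 on the 118Q knockin arrays. In Mrps28 the 11Q knockin arrays were close together and below those of their littermates, with a difference of -0.28 ± 0.12. Mrpl49 and Mrps10 followed, at -0.27 ± 0.13 and -0.28 ± 0.13, and then Mrpl32, which is matured by the mitochondrial m-AAA protease, at -0.21 ± 0.12.

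**Figure D4:**
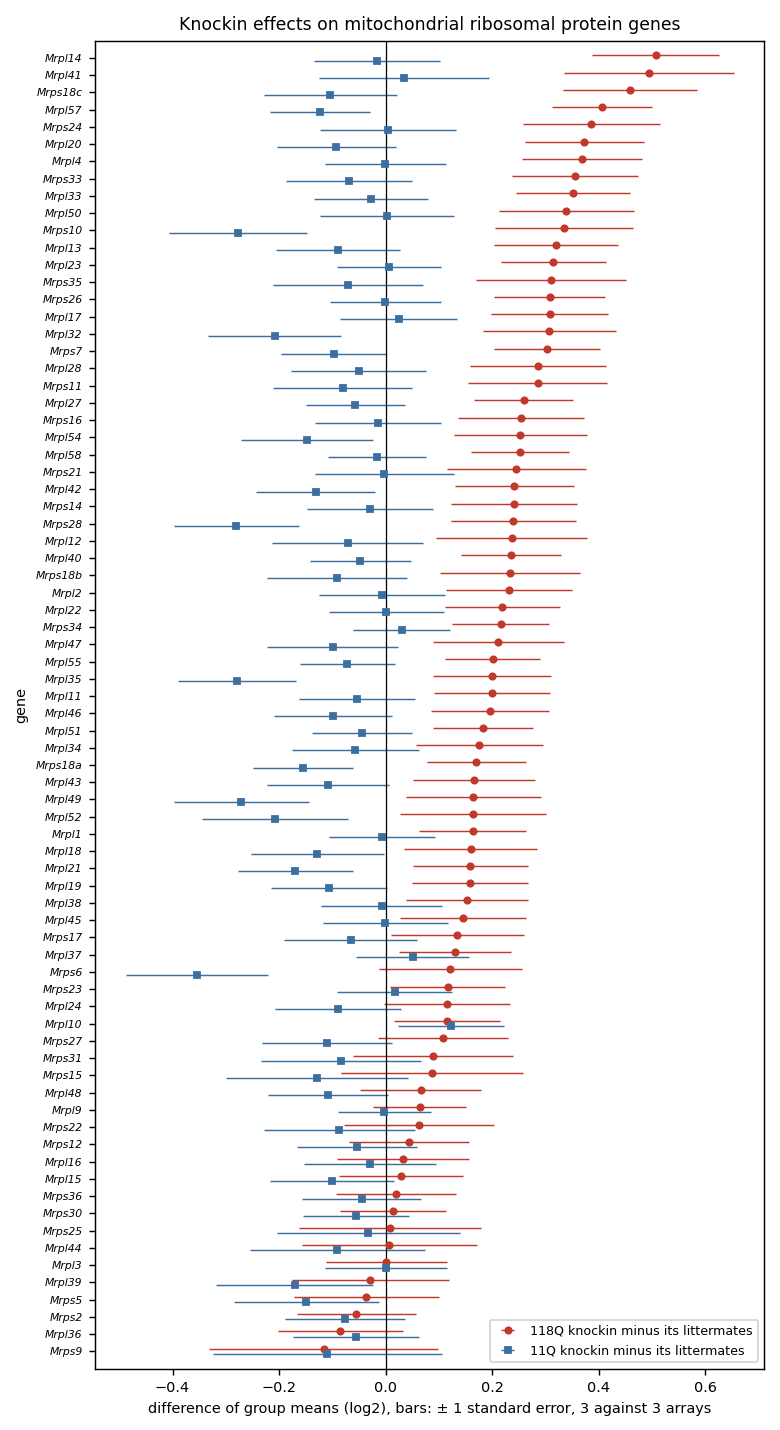
Difference between knockin and wild type littermates (log2 units, point ± SE from the model) of each of the 76 members in the 118Q line and in the 11Q line. In the 118Q line 71 points are above 0 and in the 11Q line 65 are below 0.

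The difference between the knockin effects of the lines was tested directly. It was above 0 in 73 of 76 members, against 62.3% of all genes, and below 0 in 3, against 37.7%, with a median of 0.27 log2 units against 0.08. Limma called 0 members and 0% of all genes. At an unadjusted p below 0.05, 20 members were higher, which is 26.3% against 8.09% of all genes, and 0 were lower, against 2.9%. The smallest limma adjusted p was 0.346, reached by Mrpl57 at 0.53 ± 0.13 and shared by Mrps10 at 0.61 ± 0.18, Mrps18c at 0.56 ± 0.18, Mrps28 at 0.52 ± 0.17, Mrpl14 at 0.52 ± 0.17 and Mrpl35 at 0.48 ± 0.16. Mrps10 read 5.74, 5.79 and 5.94 on the 11Q wild type arrays, 5.50, 5.64 and 5.49 on the 11Q knockin arrays, 5.49, 5.89 and 5.97 on the 118Q wild type arrays and 6.04, 6.08 and 6.24 on the 118Q knockin arrays. In Mrps10, a counterpart of bacterial S10, the 11Q knockin arrays were below their littermates and the 118Q knockin arrays above theirs, without overlap in either line.

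Between the knockins, the 118Q mice had higher levels of mitochondrial ribosomal protein genes than the 11Q mice. Limma called 33 of the 76 members higher (43.4%), against 10.1% of all genes, and 0 lower, against 3.6%. The median difference was 0.37 log2 units, or 1.29-fold, against 0.09 for all genes, and 72 members were above 0, against 62.5% of all genes, and 4 below, against 37.5%. At an unadjusted p below 0.05, 57 were higher, against 22.6% of all genes, and 0 lower, against 8.32%. In 61 members (80.3%, against 26.5%) the 118Q knockin arrays were all above the 11Q knockin arrays, and in 0 all below, against 11.6%. This comparison shares the 118Q knockin arrays with the littermate comparison and the 11Q knockin arrays with the 11Q comparison, so the results are not independent.

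Mrpl33 headed the list at 0.69 ± 0.11 log2 units, or 1.61-fold, with a limma adjusted p of 0.00595. Mrpl14 followed at 0.68 ± 0.12, with 0.00784. The arrays of both were given above, and the 118Q knockin arrays cleared the 11Q knockin arrays in each. Mrpl35 was higher by 0.61 ± 0.11, with a limma adjusted p of 0.00845, its 11Q knockin arrays being the low end of its range. The next probe set of Mrpl35 gave 0.27, with an unadjusted limma p of 0.105. Mrpl49 read 5.09, 5.23 and 5.50 on the 11Q wild type arrays, 5.19, 4.94 and 4.88 on the 11Q knockin arrays, 5.45, 5.59 and 5.56 on the 118Q wild type arrays and 5.55, 5.78 and 5.77 on the 118Q knockin arrays. Mrpl49, specific to mitochondria, was higher by 0.70 ± 0.13 in the 118Q knockin than in the 11Q knockin, with a limma adjusted p of 0.00867; the 118Q wild type and knockin arrays overlapped.

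Of the large subunit proteins with a bacterial counterpart, 13 of 28 were called. Beside Mrpl33, Mrpl14 and Mrpl35 these were Mrpl32 (0.54 ± 0.12), Mrpl13 (0.52 ± 0.12), Mrpl20 (0.49 ± 0.11), Mrpl22, Mrpl21, Mrpl23, Mrpl47, Mrpl4, Mrpl17 and Mrpl27, the last 7 at 0.38 to 0.44 log2 units. Mrpl22 is the counterpart of another protein of the exit tunnel. Of those specific to mitochondria 10 of 21 were called: Mrpl52 (0.70 ± 0.14), Mrpl49, Mrpl42 (0.57 ± 0.11), Mrpl57 (0.51 ± 0.09), Mrpl50, Mrpl40, Mrpl46, Mrpl48, Mrpl58 and Mrps18a. Mrpl58, which frees stalled ribosomes by releasing the unfinished chain, was higher by 0.37 ± 0.09 with the brightest probe set and by -0.0040 with the next. Over the 38 members with a further probe set, the median between the knockins was 0.37 with the brightest and 0.28 with the next. The sign was the same in 34 and opposite in 4. Among called members the next probe set was near 0 for Mrpl17 (0.015) and Mrpl48 (0.044) and higher than the brightest for Mrpl21 (0.62) and Mrpl47 (0.73). For Mrpl52 (0.30), Mrpl49 (0.36) and Mrpl13 (0.13) it was lower than the brightest.

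In the small subunit, 8 of 16 proteins with a bacterial counterpart were called and 2 of 10 of those specific to mitochondria. The former were Mrps18c (0.65 ± 0.13), Mrps11 (0.60 ± 0.13), Mrps10 (0.58 ± 0.13), Mrps6 (0.50 ± 0.13), Mrps24, Mrps16, Mrps7 and Mrps28. The latter were Mrps33 (0.52 ± 0.12) and Mrps27 (0.42 ± 0.12). The median difference was 0.24 in the small subunit proteins specific to mitochondria and 0.37 to 0.39 in the other roles, a difference between roles that was not tested. Mrps11 and its divergent neighbour Mrpl46 were both called, the latter at 0.40 ± 0.11. The members at or below 0 were Mrps5 (-0.15 ± 0.14), Mrps9 (-0.14 ± 0.22), Mrpl36 and Mrpl3, the last at -0.0090 and -0.0037.

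These calls depended on the arrays and on the model. Outside the 18S fit, the counts here are given without the share of all genes called in the same fit. They do not show how the members stood against other genes there. In a fit that held the 18S signal as a covariate, 0 of the 76 members and 0% of all genes were called. The members' median was 0.35 there, against 0.15 for all genes. The 118Q knockin arrays had the lowest 18S signals of all, so group and signal cannot be told apart here. With the span trend removed, 17 members were called and the median was 0.27, against 0.09 for all genes. Leaving out 11Q knockin array 1, 2 or 3 left 15, 13 and 9 members called, and leaving out 118Q knockin array 2 or 3 left 11 and 6, of which 14, 13, 9, 10 and 6 were among the 33. The members' medians in these fits were 0.37, 0.38, 0.37, 0.36 and 0.32, against 0.07, 0.11, 0.09, 0.09 and 0.09 for all genes. With array weights 59 were called, the 33 among them, and the median was 0.42, against 0.08 for all genes. With the second brightest probe set in place of the brightest, where a gene had one, 17 of the 33 stayed called.

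The members are short genes, with a median span of 7.69 kb against 23.9 kb for all genes tested with a known span. Across all genes the difference between the knockins fell with span (Spearman's rho -0.333), and so did the 118Q knockin effect (rho -0.35). Across the 76 members rho was 0.0249 and -0.218. Genes share arrays and are not independent, so these are descriptions. Among genes of 4.08 to 12.6 kb, from the lower to the upper quartile of the members' spans, the median difference between the knockins was 0.38 in 38 members and 0.19 in 2726 other genes, and 50% against 16.5% were called higher. For the 118Q knockin effect the medians in this range were 0.21 and 0.14. In this range the members' medians were above those of the other genes in both comparisons, which was not tested.

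**Figure D5:**
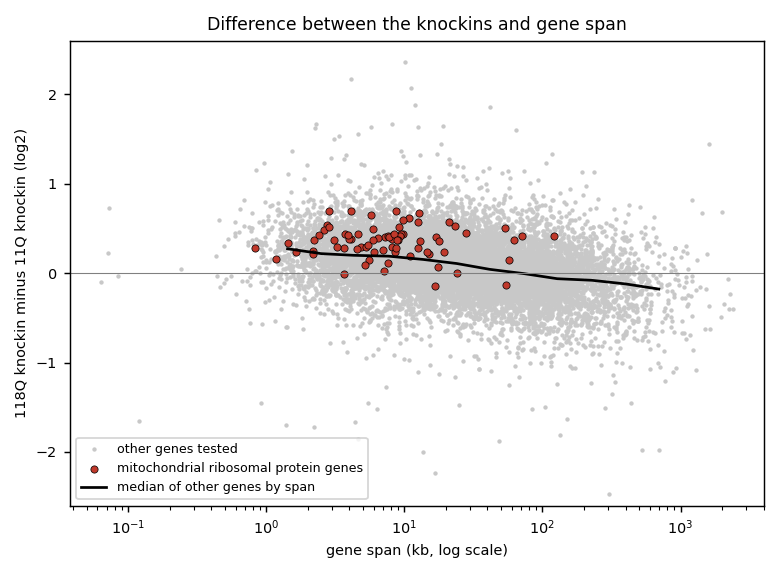
Difference between the 118Q and the 11Q knockin (log2 units) against gene span (kb, log axis) for the 76 members and all other genes tested with a known span (grey), with a line for the median of the other genes by span. Members have a median span of 7.69 kb against 23.9 kb, and in the range of 4.08 to 12.6 kb their median difference is 0.38 against 0.19 for other genes.

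The wild type groups of the lines, which carry no knockin allele, differed in the same direction by a smaller amount. Of the 76 members 63 were higher in the 118Q wild type, against 52.9% of all genes, and 13 lower, against 47.1%, with a median of 0.09 log2 units against 0.01. Limma called 0 members and 0% of all genes, and 2 members were higher at an unadjusted p below 0.05, which is 2.63% against 1.9% of all genes, while 0 were lower, against 1.08%. In 10 members the 118Q wild type arrays were all above the 11Q wild type arrays, against 4% of all genes, and in 1 all below, against 2.44%. The 2 members at an unadjusted p below 0.05 were Mrpl33 at 0.31 ± 0.11, with its arrays given above and no overlap between the wild types, and Mrpl52. Mrpl52 read 6.13, 6.11 and 6.52 on the 11Q wild type arrays, 6.11, 6.12 and 5.91 on the 11Q knockin arrays, 6.55, 6.64 and 6.55 on the 118Q wild type arrays and 6.52, 6.95 and 6.76 on the 118Q knockin arrays. Mrpl52, specific to mitochondria, differed between the wild types by 0.33 ± 0.14 without overlap. Mrpl49 differed by 0.26 ± 0.13 and Mrpl22 by 0.22 ± 0.11. Mrpl22 read 6.07, 6.19 and 6.40 on the 11Q wild type arrays, 6.16, 6.18 and 6.32 on the 11Q knockin arrays, 6.45, 6.38 and 6.50 on the 118Q wild type arrays and 6.57, 6.77 and 6.64 on the 118Q knockin arrays. In Mrpl22 the 118Q wild type arrays overlapped the 11Q wild type arrays only at the third of these. Mrps36 was at 0.22 ± 0.11 and Mrps5, in the other direction, at -0.26 ± 0.14. Without the third 11Q wild type array the median was 0.16.

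Other genes needed to build and run the mitochondrial ribosome were read from lists, for which 10.1% of all genes called higher between the knockins is the background. No difference between these lists and the members was tested. Of 4 ribosome subunits with other symbols, the 118Q knockin effect was above 0 in 3 and called in 0. Between the knockins Gadd45gip1 (0.62) and Chchd1 (0.50) were called higher, which is 50% of this short list. Gadd45gip1 was not higher in the 118Q knockin than in its littermates, at -0.04. In the 11Q knockin it was lower than in its littermates, at -0.97, the lowest of the list, and that effect was not called. Of 25 assembly factors 21 were above 0 in the 118Q knockin effect with a median of 0.12, and 0 were called. Between the knockins 5 (20%) were called higher, which were Mettl17 (0.69), Mrm1 (0.53), Mterf4 (0.53), Malsu1 (0.39) and Eral1 (0.33). Mrm1 methylates the large ribosomal RNA and Eral1 is a chaperone of the small one. Translation factors had a median of 0.04 in the 118Q knockin effect over 15 genes and 0 were called. Between the knockins 1 of the 15 (6.67%), Slirp, was called higher (0.48) and its partner Lrpprc lower (-0.59); together they stabilise mitochondrial messenger RNAs.

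Aminoacyl-tRNA synthetases and related enzymes of mitochondria numbered 20, with a median 118Q knockin effect of 0.08, 0 called, and 2 (10%) called higher between the knockins, Fars2 (0.37) and Gatc (0.36). Mitochondrial transcription and RNA processing gave 16 genes with a median of 0.14 and 0 called; between the knockins the RNA polymerase Polrmt (0.43) and Hsd17b10 (0.58), a subunit of mitochondrial RNase P, were called higher (12.5%). The shares in these lists and in the translation factors were near the 10.1% of all genes. Of 11 regulators, 0 were called in the 118Q knockin effect, and Gabpa, the ETS factor whose letters were searched above, was at -0.21 with a limma adjusted p of 0.417. Between the knockins 1 of the 11 (9.09%), the matrix protease Clpp, was called higher (0.45).

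Nuclear genes for oxidative phosphorylation and for the cytosolic ribosome were read beside the members. Of 82 subunits of oxidative phosphorylation 68 were above 0 in the 118Q knockin effect with a median of 0.21, close to that of the members, and 0 were called; Ndufa6 of complex I came first at 0.44 with a limma adjusted p of 0.0606. Between the knockins 70 were above 0 with a median of 0.25 and 18 (22%) were called. Of 44 cytosolic ribosomal proteins all were above 0 in the 118Q knockin effect, with a median of 0.32 and 1 called, Rps18 at 0.63. Between the knockins their median was 0.47 and 35 (79.5%) were called. The members' medians of 0.20 and 0.37 thus lay below those of the cytosolic ribosomal proteins in both comparisons, and the difference between the lists was not tested.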

How the data were processed

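RNA of cerebellum was measured on 12 expression arrays. The authors deposited 1 log2 value per probe set and array, computed with RMA per the submitters' processing notes; the RMA version is not given in the sources used here. Dim probe sets had unusually low values for RMA output, so these serve as relative levels, and levels are not compared between genes. Of 45101 probe sets, 34958 had a single symbol. Those under a log2 mean of 1.58, the lowest 40%, were dropped, and each symbol was read from its brightest probe set. Mrpl30 and Mrpl53 occur only on probe sets with several symbols and were not read. With limma 3.58.1 (R 4.3.3), a mean per group was fitted over all arrays; residual degrees of freedom were 8 and prior ones 4.61. Called means an adjusted p (Benjamini-Hochberg, two-sided, over all 12672 genes) below 0.05. Errors are the model's standard errors. The number of arrays limits the precision. The fit was tested on simulated data.

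Members, gene lists, motifs and most alternatives were chosen with earlier results of these data known. Members were named when called in any comparison, when among the 12 smallest p-values or 3 most negative differences of the 118Q knockin effect or the 6 smallest p-values of another comparison, or when the brightest and next probe set differed in sign with an unadjusted p below 0.05 on either (Mrpl27, Mrps5); values per array were given for the first 8 and first 4 of these rankings. The rule for other lists was up to 4 genes by smallest p in the 118Q knockin effect; genes of those lists called between the knockins, Gadd45gip1, Mterf4, Polrmt and others, and Gabpa, were named after their values were seen. Spans and upstream windows came from RefSeq tables of GRCm38.p6. The alternatives were other filters, probe set rules, scalings, variance models and thresholds, single arrays or wild type array 3 of both lines left out, the replicate number as a block, the 18S signal as covariate and removal of the span trend.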

Additional observations from a re-analysis of the deposited data

How the results depend on the processing

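With 3 arrays a group, counts of calls depended on the settings more than medians did. Most counts here carry no share of all genes called in the same fit, other than the shares given in the sections above. They describe the settings and do not set the members against other genes. In the 118Q knockin effect the count of 0 members became 1 with the lowest 60% of probe sets removed, 1 with an intensity trend, 24 with array weights, 3 at an adjusted p below 0.1 and 25 at an unadjusted p below 0.05, and leaving out single arrays gave 0 to 6. The median of 0.20 became 0.12 with the gene span trend removed and was 0.15 to 0.23 without single arrays. In the 11Q knockin effect 3 members passed unadjusted and leaving out single arrays gave 0 calls; the median of -0.07 was -0.10 to 0.0041 without single arrays 0.0041 without wild type array 3 of both lines and -0.012 with array weights. For the difference of the effects 20 passed unadjusted, and the median was 0.21 to 0.32 without single arrays. Between the knockins the count of 33 became 59 with array weights and 57 unadjusted, the latter 75% against 22.6% of all genes. It became 0 with the 18S covariate, as it did for all genes, 17 without the span trend and 6 to 41 without single arrays. The median there became 0.27 without the span trend and was 0.32 to 0.40 without single arrays. Between the wild types 2 passed unadjusted, and the median of 0.09 was 0.047 to 0.16 without single arrays and 0.15 with array weights. The second brightest probe set, an alternative chosen after seeing the data, gave 22 calls between the knockins. No filter, averaged probe sets, centring, quantile normalization and a fit of only the groups compared kept these counts within 1.5 times and the medians on the same side of 0.

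Single genes had the other sign in some fits. With the 18S covariate Mrpl4 was -0.044 in the 118Q knockin effect and -0.11 between the knockins, and in the 118Q knockin effect Mrps9 was 0.65, Mrps2 0.23 and Mrps5 0.34. Without single arrays that effect was -0.28 to 0.075 for Mrps9, -0.16 to 0.020 for Mrpl36 and -0.17 to 0.091 for Mrps5, and without wild type array 3 of both lines it was 0.075 for Mrps9. With averaged probe sets Mrps2 was 0.15 and Mrps5 0.057. With the second brightest probe set Mrps2 was 0.36, Mrps5 0.39 and Mrpl27 -0.013, and Mrpl58 was -0.0040 between the knockins. The cause was not tested.

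Deviations of same-numbered knockin and wild type arrays correlated at -0.0792, -0.112 and -0.0293 in the 118Q line. In the 11Q line they correlated at 0.193, -0.171 and 0.0127. Arrays of different number correlated at -0.253 to 0.316 in the 118Q line and -0.16 to 0.161 in the 11Q line. These values do not show whether arrays shared a litter or day, which the labels do not give. With the replicate block, 0 members were called for both knockin effects and their difference, with medians of 0.20, -0.07 and 0.27. Comparisons between the lines could not be fitted with the block, since each block lies within 1 line.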
